A study of Sus scrofa with 20 samples.

Results

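Transcripts of 10 genes of the Notch pathway were followed through 20 RNA libraries of cells prepared or sorted from pigs. The genes were chosen by name, with earlier results of these data known, and each of the 10 names had 1 row among the 25764 genes of the deposited table. They comprise the ligands JAG1, JAG2, DLL1 and DLL4, the receptors NOTCH1, NOTCH2 and NOTCH3, and the target genes HES1, HEY1 and HEYL. The libraries fell into 6 groups. The first was porcine biliary tree stem cells (pBTSCs), with 5 libraries. The labels give their tissue as gallbladder, and the study describes the cells as coming from the gallbladder together with the bile ducts outside the liver. It defines BTSCs as CD45- and EpCAM+ cells of the fetal or neonatal biliary tree. For its genetic studies it describes immunoselected stem/progenitors as held for some hours in serum-free Kubota's Medium. There they formed organoids together with early mesenchymal cells, named as angioblasts and precursors of endothelial and stellate cells. The other 15 libraries were of liver cells sorted on surface proteins. CD45+ cells gave 5 of them, CD45-/EpCAM+ cells 4, and the CD45-/EpCAM-, CD31+ and CD146+ sorts 2 each. CD45 marks leukocytes, EpCAM epithelial cells, CD31 endothelial cells, and CD146 endothelial cells and the mural cells that surround vessels. Each pBTSC library came from its own piglet. Libraries S2, S7 and S11 were from 3 newborn piglets that carry H2B-GFP, a histone fused to green fluorescent protein, and libraries S15 and S20 were from 2 wild-type newborn piglets. Age was 2 days for the piglet of S11 and 1 day for the other 4. The labels name no treatment, and the animal and age behind each liver library are not given in the sources used here, so p-values measure the spread between libraries.

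Notch signalling passes between cells that touch each other. A Jagged or Delta-like ligand on the surface of a cell binds a Notch receptor on its neighbour, the receptor is cut by ADAM proteases and then by gamma-secretase, and its intracellular part joins RBPJ and Mastermind-like proteins in the nucleus to switch on repressors of the HES and HEY families. In the developing liver the pathway is known for directing hepatoblasts to the bile duct fate. JAG1 and NOTCH2 are the genes altered in Alagille syndrome, in which bile ducts are too few. NOTCH3, JAG1 and HEYL are also known from vascular smooth muscle and pericytes, and DLL4 and NOTCH1 from endothelium.

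Values are the normalized counts of the authors. They can be compared between libraries for the same gene but not between genes, because no transcript lengths come with them. The depth was estimated from the step between low values. It lay from 21229200 to 77839900 reads in 17 libraries and from 454555 to 1566850 in the other 3, namely pBTSC library S15, CD45-/EpCAM+ library S13 and CD146+ library S22. All 10 genes were above 0 in every library. HEYL was at 3 reads in S13 and in S22, which is taken here as the floor of detection, and intervals and floors of this kind cover counting error only. The transcripts of the sorted proteins followed the sorts only in part. PTPRC, which encodes CD45, had a median of 1227 normalized counts in CD45+ libraries and 1912 in CD45-/EpCAM+ libraries. EPCAM was 1205 to 1779 in CD45-/EpCAM+ libraries and 491 to 1090 in CD45-/EpCAM- libraries, with no overlap, but 1175 to 2232 in CD45+ libraries. In pBTSCs EPCAM was 884 to 2075, which overlapped the CD45+ libraries. PECAM1, which encodes CD31, was 20102 to 25291 in CD31+ libraries and 28048 to 36576 in pBTSCs. The summed hepatocyte markers were 924601 or more in every liver library.

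**Figure D1:**
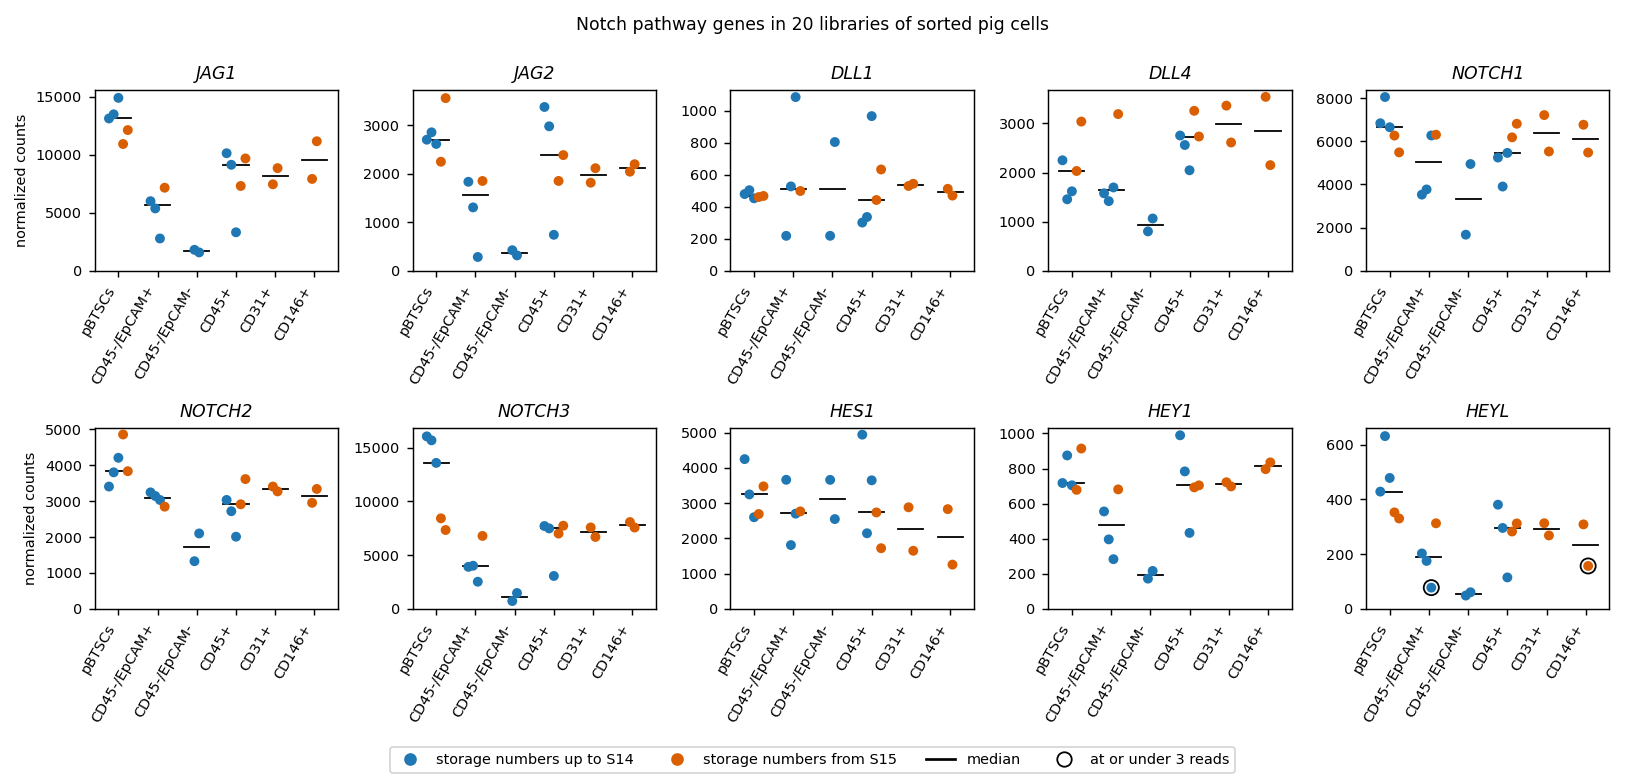
Normalized counts (vertical axes, linear, from 0) of the 10 Notch genes in each of 20 libraries by sorted group, with 1 point per library, a bar at the group median, colour for the range of storage numbers and a ring where the value is at or under 3 reads. In JAG1, JAG2, NOTCH3, HEY1 and HEYL the 2 CD45-/EpCAM- libraries sit low. In HES1 every group overlaps every other, whereas in DLL1 the CD31+ libraries lie above those of pBTSCs and CD146+ cells.

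Of the ligands, JAG1 set the pBTSCs most clearly apart. In pBTSCs it stood at 13136, 13495, 14914, 10934 and 12136 normalized counts in S2, S7, S11, S15 and S20. In CD45-/EpCAM+ cells it was 6001, 5378, 2783 and 7162 in S4, S9, S13 and S19, and in CD45-/EpCAM- cells 1807 and 1581 in S5 and S14. Every pBTSC library was therefore above every CD45- library. In CD45+ cells JAG1 was 10138, 9140, 3317, 7314 and 9687 in S3, S8, S12, S18 and S23, all below the pBTSCs. It was 7456 and 8852 in the CD31+ libraries S16 and S21, and 7922 and 11171 in the CD146+ libraries S17 and S22. The shallow CD146+ library S22 was the only one of the 15 liver libraries to overlap the pBTSCs. In order of their medians the groups ran pBTSCs, CD146+, CD45+, CD31+, CD45-/EpCAM+ and CD45-/EpCAM-. Neighbours in that order overlapped except CD31+ with CD45-/EpCAM+ and CD45-/EpCAM+ with CD45-/EpCAM-.

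JAG2, the other Jagged ligand, varied more. It was 2706, 2858, 2618, 2251 and 3565 normalized counts in the pBTSC libraries S2, S7, S11, S15 and S20. In CD45-/EpCAM+ libraries S4, S9, S13 and S19 it was 1837, 1308, 284 and 1853, where the 284 of S13 corresponds to 11 reads, and in CD45-/EpCAM- libraries it was 424 and 317. All CD45- libraries were below all pBTSC libraries. In CD45+ libraries S3, S8, S12, S18 and S23, JAG2 was 3381, 2982, 742, 1854 and 2388. CD31+ cells had 1818 and 2117 and CD146+ cells 2046 and 2200. CD45+ cells overlapped the pBTSCs, while the 4 CD31+ and CD146+ libraries lay just below their lowest value.

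The Delta-like ligands did not follow the Jagged ligands. DLL1 was 479, 503, 452, 460 and 467 normalized counts in the pBTSC libraries S2, S7, S11, S15 and S20, the narrowest spread of the 10 genes with a coefficient of variation of 4.18%. Among the liver libraries it ran from 218 to 1084, with 5 below and 8 above all pBTSC values. Its 3 highest values were 965 in the CD45+ library S12, 1084 in the CD45-/EpCAM+ library S13 and 803 in the CD45-/EpCAM- library S14. These are different sorts with neighbouring storage numbers, and the pBTSC library S11 of the same stretch had the lowest pBTSC value. S13 held its 1084 on 42 reads.

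DLL4, a ligand best known from arterial and tip endothelial cells, was 2249, 1456, 1618, 2031 and 3038 normalized counts in the pBTSC libraries S2, S7, S11, S15 and S20. The CD31+ libraries had 3363 and 2612 and the CD146+ libraries 3541 and 2151. CD45+ cells ranged from 2046 to 3257 with a median of 2734. CD45-/EpCAM+ libraries S4, S9 and S13 had 1578, 1418 and 1696 against 3191 in S19, and CD45-/EpCAM- libraries had 802 and 1064. CD31+ had the highest median and that of pBTSCs stood below those of CD31+, CD146+ and CD45+ cells, with all neighbours in the order overlapping except CD45-/EpCAM+ and CD45-/EpCAM-. DLL4 was thus above all pBTSC values in 4 liver libraries and below all of them in 3.

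Among the receptors NOTCH3 showed the widest range. It stood at 16064, 15693 and 13592 normalized counts in the pBTSC libraries S2, S7 and S11 and at 8426 and 7337 in S15 and S20. In CD45-/EpCAM+ libraries S4, S9, S13 and S19 it was 3903, 4007, 2519 and 6786, and in CD45-/EpCAM- libraries S5 and S14 it was 718 and 1468. Each pBTSC library exceeded each CD45- library, but the pBTSCs of the 2 wild-type piglets were close to S19. In CD45+ libraries S3, S8, S12, S18 and S23 NOTCH3 was 7709, 7487, 3054, 7005 and 7740. CD31+ cells had 7576 and 6689 and CD146+ cells 8078 and 7567. These 3 sorts overlapped the wild-type pBTSCs and lay below the 3 H2B-GFP libraries.

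NOTCH2, the receptor tied to bile duct formation, varied least among the liver libraries. The pBTSC libraries had 3407, 3803, 4209, 4859 and 3835 normalized counts, and the 15 liver libraries ran from 1326 to 3616 with a median of 3033. Of the 5 pBTSC libraries 4 were above every liver library, and 13 of the 15 liver libraries were below every pBTSC library. The lowest were the CD45-/EpCAM- libraries S5 and S14 with 1326 and 2100 and the CD45+ library S12 with 2009.

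NOTCH1, a receptor prominent in endothelium, was 6838, 8055, 6653, 6266 and 5488 normalized counts in the pBTSC libraries S2, S7, S11, S15 and S20. In the CD31+ libraries it was 7216 and 5528 and in the CD146+ libraries 6769 and 5480, so the groups overlapped. CD45+ cells ranged from 3905 to 6815. CD45-/EpCAM+ cells had 3529, 3769, 6272 and 6306 in S4, S9, S13 and S19, and CD45-/EpCAM- cells 1672 and 4948 in S5 and S14. In both CD45- groups the libraries with the lower storage numbers held the lower values.

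Of the target genes, HEYL, an effector known from smooth muscle, followed NOTCH3. It was 428, 631, 478, 352 and 330 normalized counts in the pBTSC libraries S2, S7, S11, S15 and S20. CD45-/EpCAM+ libraries S4, S9, S13 and S19 had 202, 175, 77.1 and 312, and CD45-/EpCAM- libraries 48.2 and 60.2. All pBTSCs were above all CD45- libraries, although S20 exceeded S19 by little. CD45+ libraries ranged from 115 to 380, CD31+ libraries had 313 and 268, and CD146+ libraries 308 and 156, the last resting on 3 reads. Of the 15 liver libraries 14 were below every pBTSC library, and the exception was the CD45+ library S3.

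HEY1, another hairy-related repressor that answers Notch, stood at 717, 875, 704, 678 and 914 normalized counts in the pBTSC libraries S2, S7, S11, S15 and S20. It was 722 and 698 in CD31+ cells and 796 and 835 in CD146+ cells, the group with the highest median. CD45+ cells ranged from 433 to 989. Lower values came from CD45-/EpCAM+ cells, with 555, 396, 283 and 681, and from CD45-/EpCAM- cells, with 172 and 216. The CD45-/EpCAM- cells overlapped no other group.

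HES1, the best known target of the pathway and one that other signals also control, showed no order of groups. It was 4246, 3245, 2597, 2688 and 3473 normalized counts in the pBTSC libraries S2, S7, S11, S15 and S20. The CD45-/EpCAM- libraries, lowest for the HEY genes, had 3658 and 2545. CD45+ cells ranged from 1718 to 4942 and CD146+ cells had 2827 and 1252. Every pair of neighbours in the order of medians overlapped.

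The first comparison asked which genes distinguish pBTSCs from sorted CD45-/EpCAM+ liver cells. JAG1, JAG2, NOTCH3 and HEYL were higher in pBTSCs. On log2(normalized count + 1) JAG1 differed by 1.35 ± 0.30 (SE; 5 against 4 libraries; limma adjusted p = 0.00175), which is 2.55-fold. NOTCH3 differed by 1.52 ± 0.33 (adjusted p = 0.00168) or 2.87-fold, JAG2 by 1.38 ± 0.47 (adjusted p = 0.0276) and HEYL by 1.33 ± 0.38 (adjusted p = 0.0108). These 4 of the 10 genes were called higher and 0 lower, where a call needs a log2 fold change beyond 1 in either direction and an adjusted p under 0.05. Of all 15576 genes tested 14.8% were called higher and 10.3% lower. Because the members and lists were chosen with earlier results of these data known, such shares are description and no test, here and below. The median log2 fold change of the 10 genes was 0.62, against 0.08 over all genes. HEY1 passed the adjusted p but not the fold, at 0.77 ± 0.24 (adjusted p = 0.0171). NOTCH2 at 0.38 (adjusted p = 0.0682), NOTCH1 at 0.46 (0.182), HES1 at 0.27 (0.521), DLL4 at 0.11 (0.766) and DLL1 at -0.08 (0.898) were not called. In bulk libraries such as these, fewer cells of a type and less RNA per cell cannot be told apart. The shallow CD45-/EpCAM+ library S13 bore on the JAG2 and HEYL calls. Without it JAG2 differed by 0.75 (adjusted p = 0.106) and HEYL by 0.95 (0.0443), and over 32 alternatives their adjusted p ran from 0.00437 to 0.108 and from 0.000393 to 0.0443. HEYL was called in 31 of the 32, among them the fit without all 3 shallow libraries, at 1.03 (adjusted p = 0.0339). JAG2 was also lost without the pBTSC library S20, at 1.29 (adjusted p = 0.0575). JAG1 and NOTCH3 were called in 32 of 32 alternatives. Of the 32, 20 left out 1 library. Where that library belonged to neither group compared, only the spread could move and not the fold, here and in the tallies below.

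Against CD45-/EpCAM- liver cells the differences were larger and reached more members. The receptors NOTCH3, NOTCH2 and NOTCH1, the ligands JAG1, JAG2 and DLL4, and the targets HEYL and HEY1 were higher in pBTSCs. NOTCH3 differed by 3.50 ± 0.42 on the log2 scale (5 against 2 libraries; limma adjusted p = 5.32e-06), or 11.3-fold. HEYL differed by 2.98 ± 0.48 (9.02e-05), JAG1 by 2.93 ± 0.37 (9.90e-06) and JAG2 by 2.91 ± 0.59 (0.000682). HEY1 followed at 2.0 ± 0.30 (4.50e-05), and NOTCH2 at 1.26 ± 0.20 (8.26e-05), NOTCH1 at 1.20 ± 0.33 (0.00692) and DLL4 at 1.12 ± 0.31 (0.00667) were the smallest of the 8 called. In all 15576 genes 20% were called higher and 16.6% lower, and the median was 0.04 against 1.63 for the 10 genes. DLL1 at 0.17 (adjusted p = 0.807) and HES1 at 0.07 (0.900) were not called. The DLL4 value fell below the fold threshold with storage range in the fit, at 0.90 (adjusted p = 0.00791), with runs of storage numbers as a block, at 0.97 (0.00672), and without the pBTSC library S20, at 0.97 (0.0140). With only 2 libraries in the group, the choice of library mattered. Without S5, NOTCH1 fell to 0.42 (adjusted p = 0.382), DLL4 to 0.92 (0.113) and NOTCH2 to 0.93 (0.00877), and 5 calls remained, for JAG1, JAG2, NOTCH3, HEY1 and HEYL. The highest adjusted p over 32 alternatives for these 3 genes were the ones just given, and the lowest were 0.000233 for NOTCH1, 0.000737 for DLL4 and 8.56e-06 for NOTCH2.

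Against CD45+ liver cells none of the 10 genes was called, where 20.6% of all genes were called in either direction. Without the threshold on fold change 3 were higher in pBTSCs at a limma adjusted p under 0.05, as were 18.7% of all genes. They were JAG1 at 0.80 ± 0.28 on the log2 scale (adjusted p = 0.0359), NOTCH3 at 0.89 ± 0.32 (0.0369) and NOTCH2 at 0.51 ± 0.15 (0.0152). DLL4 had the most negative value, at -0.39 ± 0.23 (adjusted p = 0.212). NOTCH3 crossed the fold threshold without the shallow pBTSC library S15, at 1.01 (adjusted p = 0.0317), and without S20, at 1.06 (0.0198), with adjusted p from 0.00353 to 0.107 over 32 alternatives.

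Against CD31+ and CD146+ liver cells none of the 10 genes was called either, with 21.4% of all genes called. The values ran from -0.51 ± 0.25 for DLL4 (limma adjusted p = 0.132) to 0.77 ± 0.38 for HEYL (0.138), with HES1 at 0.66 ± 0.31 (0.118), NOTCH3 at 0.64 ± 0.33 (0.162), JAG1 at 0.56 ± 0.30 (0.173) and HEY1 at 0.02 ± 0.24 (0.958). The 4 comparisons share the same 5 pBTSC libraries and are not independent of each other.

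**Figure D2:**
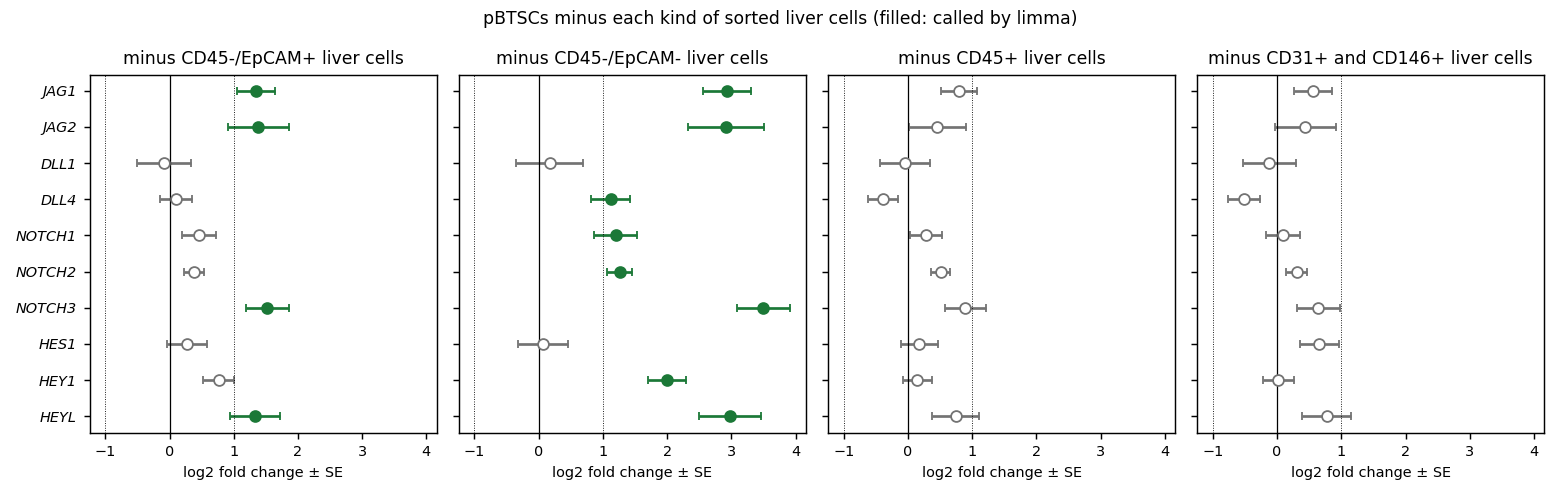
Log2 fold changes of pBTSCs over each kind of liver cells (horizontal axes) for the 10 Notch genes, with bars of 1 SE from limma, filled points for called genes and dotted lines at an absolute log2 fold change of 1. Filled points number 4 against CD45-/EpCAM+ cells, 8 against CD45-/EpCAM- cells and 0 in the other 2 panels.

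Among the liver libraries, CD31+ and CD146+ cells could be set against CD45+ and CD45-/EpCAM+ cells within the same storage numbers, S16 to S23. Of the 15576 genes 0% were called by limma, and 12 had an unadjusted p under 0.05. With array weights 524 had such a p and again 0 were called. Both counts are below what a threshold of 0.05 gives by chance over 15576 genes, and 12 is far below. The spread shared by the fit was thus wide for this contrast. The lack of calls therefore does not show that the sorts are alike. Without the CD146+ library S17, which leaves the shallow S22 as the only CD146+ library, 758 genes were called, 8 higher and 750 lower, and 2251 had an unadjusted p under 0.05. None of the 10 members was called in that fit or in any of the other 27 alternatives. The values of the members lay between -0.27 ± 0.37 for HES1 and 0.17 ± 0.35 for JAG1. DLL4 and NOTCH1, known from endothelium, differed by -0.11 ± 0.22 and -0.04 ± 0.31.

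The pBTSC libraries of the 2 wild-type piglets carry storage numbers from S15 and those of the 3 H2B-GFP piglets carry numbers up to S14, so piglet line and storage number cannot be told apart in pBTSCs. The study also lists lower RNA integrity for S2, S7 and S11 than for S20, with none given for S15. It lists fewer cells for S15 and S20 than for the H2B-GFP libraries. RNA integrity and cell number cannot be separated from piglet line here either, and their part was not tested. NOTCH3 values were lower from S15 in pBTSCs and higher in CD45-/EpCAM+ cells. The level was 13592 to 16064 normalized counts in pBTSCs up to S14 and 7337 to 8426 from S15, whereas in CD45-/EpCAM+ cells it was 2519 to 4007 up to S14 and 6786 in the only library from S15. The difference between pBTSCs and CD45-/EpCAM+ cells was then 2.15 on the log2 scale up to S14 and 0.21 from S15. For HEYL these values were 1.85 and 0.13, for JAG1 1.63 and 0.69, for JAG2 1.63 and 0.61 and for HEY1 0.94 and 0.21. Against CD45+ cells NOTCH3 differed by 1.43 up to S14 and 0.09 from S15, HEYL by 1.11 and 0.20, and JAG1 by 1.03 and 0.45. These within-range values have no test, and those from S15 rest on 2 pBTSC libraries.

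NOTCH2 differed by 0.27 up to S14 and 0.60 from S15 against CD45-/EpCAM+ cells. The change of the pBTSC minus liver difference between the ranges was tested in a limma fit with CD45+ and CD45-/EpCAM+ cells. NOTCH3 had -1.63 ± 0.46 (unadjusted p = 0.00331, adjusted p = 0.158) and HEYL -1.31 ± 0.62 (adjusted p = 0.461). None of the 10 genes and 1.02% of all genes were called. With array weights NOTCH3 was called at -1.40 (adjusted p = 0.00741), and its adjusted p ran up to 0.345 over 28 alternatives. Across the liver libraries alone, S16 to S23 against S3 to S14, again none of the 10 was called, against 4.3% of all genes. DLL4 came nearest at 0.66 ± 0.20 (adjusted p = 0.0556), followed by NOTCH3 at 0.69 ± 0.29 (0.145) and HEYL at 0.75 ± 0.39 (0.246).

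**Figure D3:**
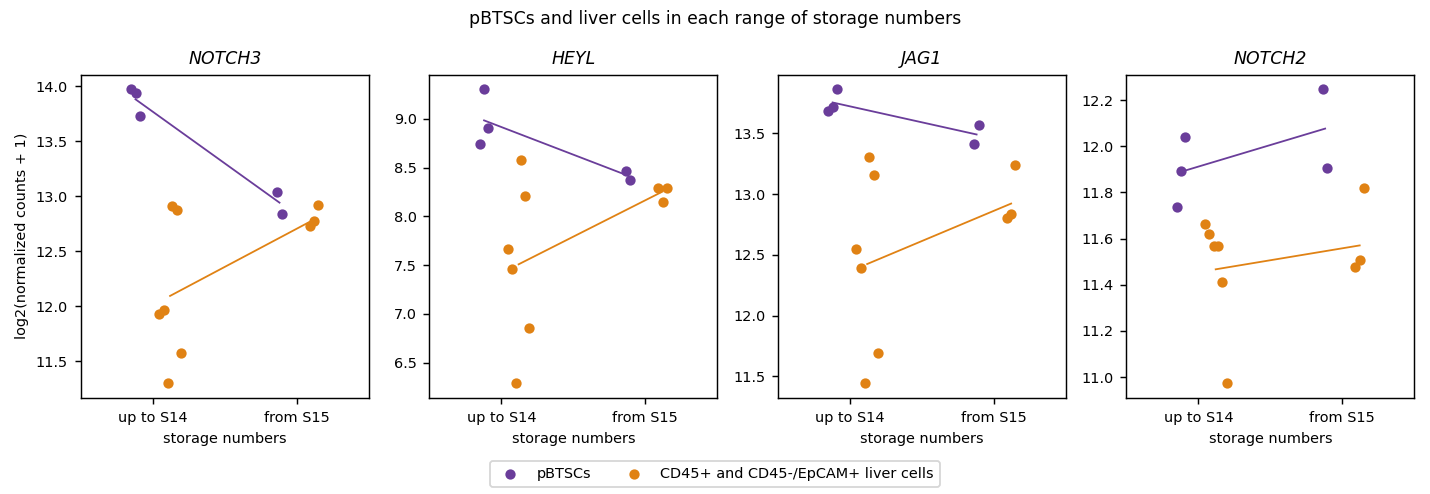
Log2(normalized counts + 1) of NOTCH3, HEYL, JAG1 and NOTCH2 (vertical axes, not starting at 0) in pBTSCs and in CD45+ and CD45-/EpCAM+ liver cells, for storage numbers up to S14 and from S15, with 1 point per library and lines joining means (for liver, the mean of the means of both sorts). For NOTCH3 the means of pBTSCs and liver cells lie far apart up to S14 and close together from S15.

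The wider pathway was read from a list of 65 gene symbols, of which 61 had a row. Besides the 10 members 48 were tested. Against CD45-/EpCAM+ cells 6 of these were called higher and 2 lower in pBTSCs, beside 14.8% and 10.3% of all genes, so that the share called higher was near that of all genes. The median log2 fold change was 0.38, against 0.08 over all genes. Against CD45-/EpCAM- cells 16 were higher and 3 lower, beside 20% and 16.6% of all genes, with a median of 0.33 against 0.04. Against CD45+ cells 5 were higher and 3 lower, beside 20.6% of all genes called in either direction, and against CD31+ and CD146+ cells 6 were higher and 3 lower, beside 21.4%. Of 13 tested genes of ligand endocytosis and receptor turnover 3 were called higher against CD45-/EpCAM+ cells, and of 16 genes of the nuclear complex 0. NUMBL, a relative of the Notch antagonist NUMB, was 428 to 635 normalized counts in pBTSCs and 52.1 to 154 in CD45-/EpCAM+ cells (log2 fold change 2.34 ± 0.28, limma adjusted p = 4.31e-06). DTX1, a Deltex ubiquitin ligase, differed by 2.01 ± 0.29 (3.81e-05). LFNG, the Lunatic fringe glycosyltransferase that tunes which ligands a receptor answers, differed by 1.84 ± 0.29 (9.88e-05), with 1207 to 1828 in pBTSCs and 226 to 694 in CD45-/EpCAM+ cells. The 3 genes were also called higher against CD45+ cells, at 1.80, 1.55 and 1.70, and against CD31+ and CD146+ cells, at 1.76, 1.46 and 1.80. None of them lost a call under the 32 alternatives in these 3 comparisons.

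The target HEY2, a close relative of HEY1, differed by 1.60 ± 0.29 against CD45-/EpCAM+ cells (limma adjusted p = 0.000353) and by 2.79 ± 0.36 against CD45-/EpCAM- cells (1.26e-05). NEURL1B, a Neuralized ubiquitin ligase, had the largest rise of the pathway genes besides the members against CD45-/EpCAM- cells, at 3.14 ± 0.53 (0.00015), and against CD45+ cells it was 1.26 ± 0.40 (0.0221), a call lost in 4 of 32 alternatives, each a library left out (pBTSC S2 or S7 or CD45+ S3 or S8; adjusted p from 0.0515 to 0.0596). Of 7 genes of receptor cleavage PSEN2 and FURIN were called lower against both kinds of CD45- cells and 1, the protease gene ADAM10, higher, at 1.01 ± 0.18 (0.000352) against CD45-/EpCAM+ cells and 1.16 ± 0.23 (0.000566) against CD45-/EpCAM- cells. ADAM10 was chosen after its values were seen and lay near the fold threshold: it was called in 26 and 30 of 32 alternatives, and fell short of the fold, at 0.86 to 0.99, without S4, S9, S15 or S20 in the first comparison and at 0.93 without S5 in the second. PSEN2, a presenilin of gamma-secretase, was 183 to 272 normalized counts in pBTSCs and 891 to 1602 in all liver libraries, and differed by -2.53 ± 0.17 (1.70e-08), -2.60 ± 0.22 (1.85e-07), -2.39 ± 0.16 (1.60e-08) and -2.36 ± 0.17 (3.40e-08) in the 4 comparisons in the order above. FURIN, which cuts the receptor during its maturation, differed by -1.30 ± 0.14 (1.94e-06) against CD45-/EpCAM+ cells and by -1.06 to -1.16 in the other 3 comparisons. All 4 values were short of the fold threshold when libraries were rescaled to the same total, and that against CD45-/EpCAM- cells also without S14, at -0.98. CIR1, a corepressor partner of RBPJ, differed by -1.10 ± 0.29 (0.00521) against CD45-/EpCAM- cells, which became -0.60 (0.215) without S5 and -0.98 (0.0116) without the pBTSC library S15, with adjusted p up to 0.215 over 32 alternatives.

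DLK1, a non-canonical Delta-like ligand of fetal and hepatoblast-stage cells, was 0 to 11.8 normalized counts in pBTSCs, with the 0 in the shallow library S15. It was 0 to 209 in CD45-/EpCAM+ and 8.93 to 27.0 in CD45-/EpCAM- libraries, which overlapped the pBTSCs. It was 11.9 to 523 in CD45+, 249 to 492 in CD31+ and 184 to 257 in CD146+ libraries, and DLK1 was called lower in pBTSCs against CD45+ (limma adjusted p = 0.0149) and against CD31+ and CD146+ cells (0.00271). Its fitted folds depend on the added count of 1 and are not bounds. It was also the only pathway gene called between liver storage ranges, higher in S16 to S23 (adjusted p = 0.0427), a call lost in 15 of 28 alternatives with adjusted p up to 0.126. HES6, a target-family member, was called higher than in CD31+ and CD146+ cells at 2.23 ± 0.80 (0.0431), with the shallow library S22 listed at 0. Without S22 it was 0.55 (0.109), and it was called in 11 of 32 alternatives, with adjusted p up to 0.142.

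**Figure D4:**
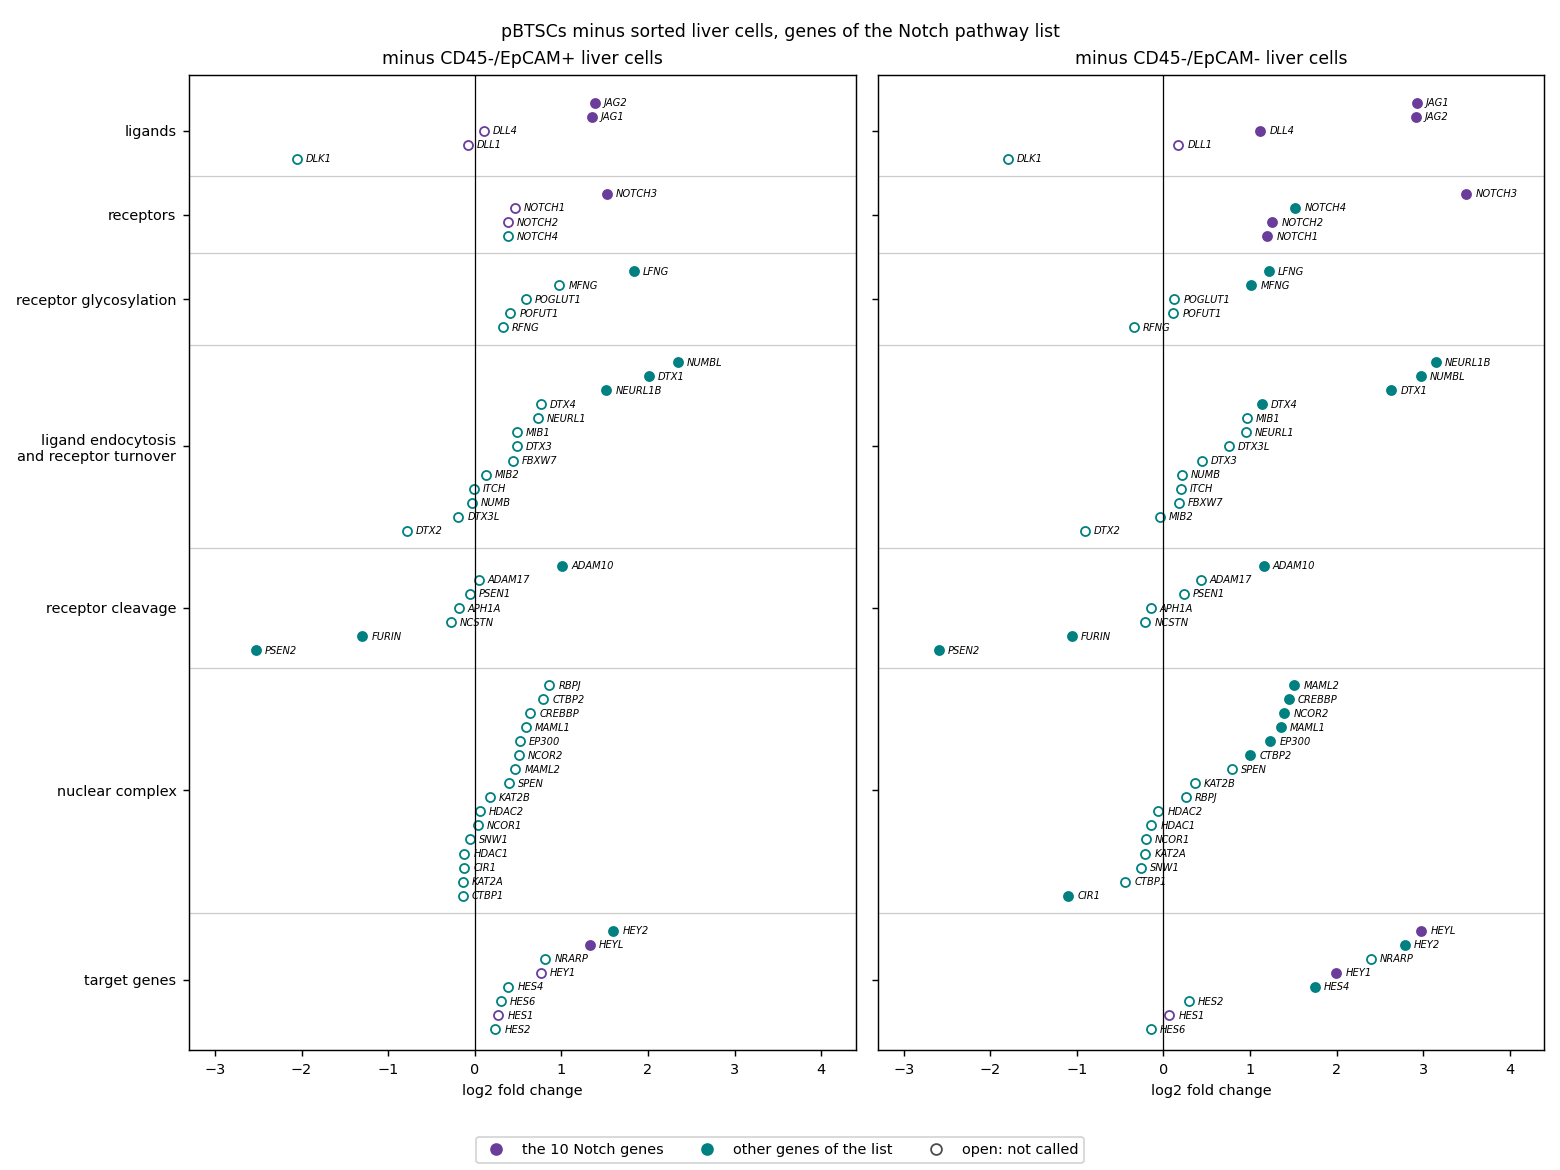
Log2 fold changes (horizontal axes) of pBTSCs over CD45-/EpCAM+ and over CD45-/EpCAM- liver cells for the 58 tested genes of the Notch pathway list, grouped by role, with purple for the 10 members and filled points for called genes. JAG1, JAG2, NOTCH3 and HEYL are filled in both panels, and PSEN2 lies at the far left of both, at -2.53 and -2.60.

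Markers of smooth muscle and mural cells moved with several of the members. The list held 8 genes, of which 7 had a row (ACTA2, TAGLN, DES, CNN1, PDGFRB, RGS5 and CSPG4), and all 7 were above 0 in every library. Their summed normalized counts were 102397 to 197482 in pBTSCs, 22638 to 60292 in CD45-/EpCAM+ cells, 14757 to 20536 in CD45-/EpCAM- cells, 32563 to 106754 in CD45+ cells, 53205 to 62848 in CD31+ cells and 63490 to 72937 in CD146+ cells. Against CD45-/EpCAM+ cells 6 of the 7 were called higher in pBTSCs, beside 14.8% of all genes, and against CD45-/EpCAM- cells 7, beside 20%. Against CD45+ cells 3 were called higher and 0 lower, beside 20.6% of all genes called in either direction. Against CD31+ and CD146+ cells the counts were also 3 and 0, beside 21.4%. The part of smooth muscle and mural cells in the JAG1, JAG2, NOTCH3 and HEYL results was not tested. Within pBTSCs the sum was also lower in S15 and S20, at 102397 and 104234, than in S2, S7 and S11, at 138731, 197482 and 139990. NOTCH3 and HEYL were lower in S15 and S20 as well. So were the summed Schwann cell markers, at 2021 and 2568 against 8081 to 10598 in S2, S7 and S11. JAG2 did not follow, as it was lowest of the pBTSCs in S15 and highest in S20. The CD45+ library S12, low in JAG1, JAG2 and NOTCH3, had the lowest sum of its group.

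Over the 17 deep libraries, with log2 values, the sum had a Pearson r of 0.94 with JAG1, 0.93 with HEYL, 0.92 with NOTCH3 and 0.90 with JAG2. It had 0.84 with HEY1, 0.78 with NOTCH2, 0.55 with NOTCH1, 0.43 with DLL4, 0.12 with HES1 and -0.13 with DLL1. NOTCH1 ran instead with the summed endothelial markers, at 0.95, where DLL4 had 0.67. DLL4 had -0.81 with the summed erythroid markers, which were 191856 to 875833 in CD45-/EpCAM- cells and at most 128633 elsewhere. JAG1, NOTCH3, HEYL and JAG2 also had 0.79, 0.77, 0.74 and 0.68 with the summed biliary epithelium markers. These were 16017 to 57590 in pBTSCs, with SPP1 alone at 13614 to 51735, and at most 11602 in liver libraries. The other biliary markers did not all follow SPP1. CFTR was 523 to 887 in pBTSCs and 1095 to 1740.5 in CD45-/EpCAM+ libraries, and SOX9 402 to 821 and 754 to 1351. KRT7 was 440 to 2081 and 462 to 704. Against CD45-/EpCAM+ cells 1 of 5 tested biliary markers was called higher in pBTSCs and 1 lower, beside 14.8% and 10.3% of all genes. With the summed leukocyte markers JAG1, NOTCH3, HEYL and JAG2 had -0.74, -0.76, -0.75 and -0.61. The markers of that list did not move as 1. Against CD45+ cells 3 of the 6 were called lower in pBTSCs and 1 higher, beside 20.6% of all genes called in either direction. CD79A was 275 to 435 in pBTSCs and 166 to 220 in CD45+ libraries, and CD3E 33.9 to 197 and 8.66 to 24.8. All r values here are descriptions across libraries that share sorts and may share donors. With the summed fibroblast markers JAG1, NOTCH3, HEYL and JAG2 had 0.70, 0.68, 0.66 and 0.60. This sum was 343130 to 1630450 in pBTSCs and at most 147385 in liver libraries. All 6 fibroblast markers were called higher in pBTSCs in each of the 4 comparisons. Of all genes 14.8% and 20% were called higher against the 2 CD45- sorts. In the other 2 comparisons 20.6% and 21.4% were called in either direction. Within pBTSCs the fibroblast sum was higher in S15 and S20 than in S2, S7 and S11, and NOTCH3 was lower. The part of fibroblasts in the Notch gene values was not tested.

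**Figure D5:**
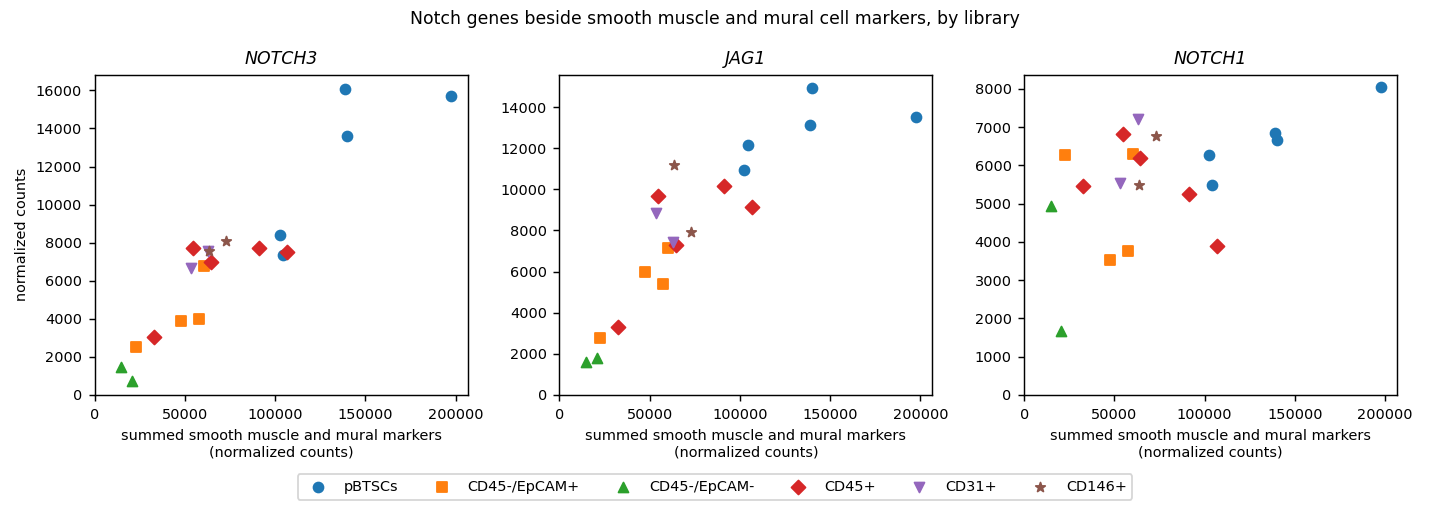
Normalized counts of NOTCH3, JAG1 and NOTCH1 (vertical axes, from 0) against the summed smooth muscle and mural cell markers of the same library (horizontal axes, from 0), with 1 point per library and a symbol for each group. NOTCH3 and JAG1 climb with the sum across groups, with r of 0.92 and 0.94 over the 17 deep libraries on the log2 scale, and NOTCH1 does so less, with 0.55.

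The members varied together to different degrees. Over the 17 deep libraries NOTCH3 and HEYL had a Pearson r of 0.98, JAG1 and HEYL 0.97, JAG1 and JAG2 0.97, and JAG1 and NOTCH3 0.95. HEY1 had 0.95 with JAG2 and 0.94 with HEYL. HES1 had values between -0.35 and 0.04 with the other 9 members, and DLL1 between -0.35 and 0.20 with the 8 members other than NOTCH1, with which it had 0.60. Among all named protein-coding genes those most like NOTCH3 were ARHGEF17 (0.986), CACNA1C (0.986) and GPR20 (0.985), and those most like HEYL were LAMA5 (0.984), ARHGEF17 (0.984) and MICU3 (0.984). For JAG1 they were KLHL23 (0.989), RCAN2 (0.984) and ADAMTSL5 (0.983), and for JAG2 they were MSX1 (0.980), JAG1 (0.969) and TSPAN2 (0.963). HEY1 was nearest to JPH4 (0.964), SEMA3G (0.961) and SYNPO (0.957).

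NOTCH1 was nearest to TYK2 (0.984), SHANK3 (0.981) and CBL (0.969), and NOTCH2 to SYNE2 (0.968), PARP4 (0.954) and DST (0.952). DLL4 was nearest to UNC5B (0.951), a netrin receptor of endothelium, then to MYO10 (0.925) and LMO3 (0.922). DLL1 was nearest to KCNK6 (0.954), ARHGAP27 (0.941) and PPARD (0.937). HES1 had no close match, with RASSF1 (0.792), TRIM27 (0.771) and NUDT17 (0.755) at the top.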

How the data were processed

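RNA of sorted pig cells was isolated with Qiagen RNeasy and sequenced from poly(A) libraries made with the Illumina TruSeq Stranded mRNA kit. The table deposited by the authors gives a non-negative signal, normalized counts, for 25764 genes in 20 libraries. The submitters' processing notes name STAR, Salmon and DESeq2, with no version or role. The genome build and annotation are not given in the sources used here, so no coordinates are printed, and no sequences were used here. All levels are relative to that normalization.

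Libraries were grouped by the cell type of their labels, and 0 columns of per-sample values were left unmapped. The step of low values gave the worth of 1 read. Only 55.99% to 81.6% of low values lay within 0.05 of a whole read, so count tests were not run. Deposited values were moved to log2(normalized count + 1) and fitted with limma 3.58.1 in R 4.3.3, using a trended eBayes step. The 15576 genes tested reached 10 normalized counts in 2 or more libraries, and p-values were adjusted over all of them by Benjamini-Hochberg. Group means of all 20 libraries shared 1 estimate of spread. Comparisons by storage number used means of group and range. A call needed a log2 fold change beyond 1 in either direction and an adjusted p-value under 0.05. The fit was tested on simulated data. Tables and figures were made in Python 3.11.15 with pandas 2.3.3, numpy 2.4.6 and matplotlib 3.10.9.

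The members and lists were chosen with earlier results of these data known. Named are the 10 members, per comparison the called genes of the rest of the pathway list with the 4 strongest rises and the 4 strongest falls, and the 3 genes most alike to each member (Pearson, 17 libraries of at least 2000000 estimated reads). Alternatives changed the pseudocount, the scaling, the filter, the weights or the fit, or left out a library. Within-range differences and marker sums were chosen after seeing the data. The piglet line of pBTSC libraries follows the study's description.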

Additional observations from a re-analysis of the deposited data

Results flagged for a closer look

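Among 30 groups of 4 or 5 libraries examined for a library far from the others, 2 held such a library, and chance flags about 1 in 20 groups. DLL4 in the CD45-/EpCAM+ library S19 was 3191 normalized counts against 1418 to 1696 in S4, S9 and S13, a gap of 0.843 of the whole range where 0.829 is the limit for 4 libraries. S19 is the only library of its group from the later storage numbers. NOTCH3 in the CD45+ library S12 was 3054 normalized counts against 7005 to 7740 in the other 4, a gap of 0.843 of the range where the limit for 5 libraries is 0.71. In the same library the summed smooth muscle and mural cell markers were 32563, against 54617 or more in the other CD45+ libraries, and their part in the NOTCH3 value was not tested.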

How the results depend on the processing

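Of 2120 values of the 10 members under the alternatives, 2098 kept their state, 10 lost a call and 12 gained one. The state is called or not called, and most of the 2098 were called in neither fit. No called value changed sign. Leaving out each library in turn gave 2 to 4 members called against CD45-/EpCAM+ cells (2 without S13), 5 to 8 against CD45-/EpCAM- cells (5 without S5) and 0 to 1 against CD45+ cells (1 without S15 or S20). Of all genes 2053 of 15536 were called higher against CD45-/EpCAM+ cells without S13. Against CD45+ cells 3030 of 15436 were called in either direction without S15 and 3065 of 15494 without S20. In that comparison 1 member was called without the 3 shallow libraries, beside 3691 of 15380 genes in either direction. With no threshold on fold change 3 were higher, beside 18.7% of all genes. Libraries rescaled to the same total gave 2, JAG1 at 1.05 and NOTCH3 at 1.14, beside 2406 of 15576 genes called higher. The same rescaling gave 1 against CD31+ and CD146+ cells, HEYL at 1.06, beside 2872 of 15576 genes called higher. It added HEY1 at 1.07 against CD45-/EpCAM+ cells, where 3275 of 15576 genes were called higher. Array weights gave 1 in the change between storage ranges, NOTCH3, beside 962 of 15576 genes called in either direction.

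Rescaling to the same total moved the median of all genes by 0.30, 0.47, 0.25 and 0.29 on the log2 scale in the 4 comparisons of pBTSCs. The share of calls that were higher went from 59.0% to 72.6% against CD45-/EpCAM+ cells, from 54.7% to 75.4% against CD45-/EpCAM- cells, from 53.6% to 66.8% against CD45+ cells and from 59.0% to 71.7% against CD31+ and CD146+ cells. Relative to the median, JAG1 and NOTCH3 then differed by 1.27 and 1.44 against CD45-/EpCAM+ cells. DLL1 against CD45-/EpCAM+ cells turned from -0.08 to 0.23, neither called. The JAG2 call there was lost without the 3 shallow libraries (0.82, limma adjusted p = 0.108). DLL4 against CD45-/EpCAM- cells fell below the fold threshold with storage range in the fit (0.90), with runs of storage numbers as a block (0.97) and without S20 (0.97). Of 892 values of the other named pathway genes 843 kept their call and 49 lost it. The cause was not tested. Fits by storage range without S19 could not be made, and count tests were not possible. Replicate numbers follow accession order and pair no libraries, and the donors of liver libraries are not given in the sources used here. The block on runs of storage numbers changed no other call of a member in the comparisons of pBTSCs. Reads of 3 libraries limit low values, HEYL above all.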

Other observations

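The CD45+ library S12, the CD45-/EpCAM+ library S13 and the CD45-/EpCAM- library S14 bear neighbouring storage numbers and stood alike in 3 respects. They held the 3 highest DLL1 values of the 20 libraries, at 965, 1084 and 803 normalized counts. JAG2 was lowest of its group in each, at 742, 284 and 317, and so was JAG1, at 3317, 2783 and 1581. The group of S14 holds only 2 libraries. NOTCH1 did not follow, at 5464, 6272 and 4948. NOTCH3, HEY1 and HEYL were lowest of their group in S12 and S13, but in S14 they were higher than in S5. The pBTSC library S11, next in number, had the highest JAG1 value of the pBTSCs, at 14914. The storage numbers were compared after the values were seen, and nothing in the labels says that these libraries share a donor.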
